A study of Mus musculus with 15 samples.

Results

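The clustered protocadherins are a family of cell adhesion proteins encoded in 3 neighbouring gene arrays, called alpha, beta and gamma, on mouse chromosome 18. They were taken from the table by symbol, as every gene whose name places it in one of these arrays, which gave 57 of 44260 genes: 13 alpha, 22 beta and 22 gamma genes. Each gene was compared between the Spret allele (Mus spretus) and the B6 allele (C57Bl/6J) in 3 libraries of day 12 cerebral cortex organoids. The organoids were grown from epiblast stem cells of SpretB6 hybrid lines and the libraries are titled SpretB6 C1 to C3, with no agent named in the labels and no other group in the table. The tissue label names the epiblast stem cells rather than the organoids. All 3 libraries come from the same cross, so the strain of an allele and the parent it came from cannot be told apart. No label says that C1 to C3 were grown separately, and the p-values therefore cover only how far these 3 libraries vary, some of which may be technical. The 12 induced pluripotent stem cell samples of the series, from 4 crosses, were not analysed here.

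Clustered protocadherins sit at the neuronal surface and bind the same isoform on a facing membrane, which lets neurites of one neuron recognise each other. In the alpha and gamma arrays each gene contributes its own first exon, which carries the outside of the protein and is spliced to constant exons that all genes of the array share, whereas a beta gene is read from its own exon. In most neurons a few genes are chosen at random on each chromosome copy, through promoter looping by CTCF and cohesin, while the C-type genes Pcdhac1, Pcdhac2, Pcdhgc3, Pcdhgc4 and Pcdhgc5 are used more widely. A bulk library sums over many such cells, so fewer cells using an allele and less RNA per cell cannot be told apart.

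Markers of cortical excitatory neurons were high in every library, with a sum over 7 genes and both alleles of 20381, 20047 and 20136 in libraries 1, 2 and 3, and those of radial glia summed to 2584, 1972 and 2465. All 3 markers each of microglia and of serotonergic neurons had a mean under 10 per allele column. Choroid plexus markers differed between libraries, at 2859, 645 and 409, as did those of Cajal-Retzius cells at 1691, 972 and 1074. Values are normalised read numbers that could be assigned to an allele. They correspond to about 2.02 M, 1.64 M and 3.93 M Spret reads and 2.34 M, 1.89 M and 4.5 M B6 reads, so library 3 was read most deeply. Values are not divided by gene length or by the number of sites that tell the alleles apart, so they are compared between alleles of a gene. Where genes are ordered by value below, the order is that of these read numbers and not of RNA amount.

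In the values as deposited, the alleles differed most in the beta array. Alpha and gamma values are mostly a level common to their array, described below, and their ratios are drawn toward that of this level. The ratios of the 3 arrays are therefore not on one scale. Among the 56 members whose mean per allele column reached 10, 15 were higher from Spret and 2 from B6 by limma (adjusted p under 0.05), while 39 were not called. Over all 15985 tested genes 7.56% were higher from Spret and 22.8% higher from B6. The calls toward Spret were 10 beta genes, 4 alpha genes and 1 gamma gene, and those toward B6 were 1 beta gene and 1 gamma gene. The log2 ratio of Spret to B6 had a median of 0.55 in the beta array, 0.21 in the alpha array and -0.01 in the gamma array, against -0.14 over all tested genes. The 1 gene under the limit was Pcdhb1, which read 0, 13 and 3 from Spret and 1, 1 and 0 from B6 in libraries 1, 2 and 3. The lowest tested member was Pcdhb4, with a mean of 25.5.

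**Figure D1:**
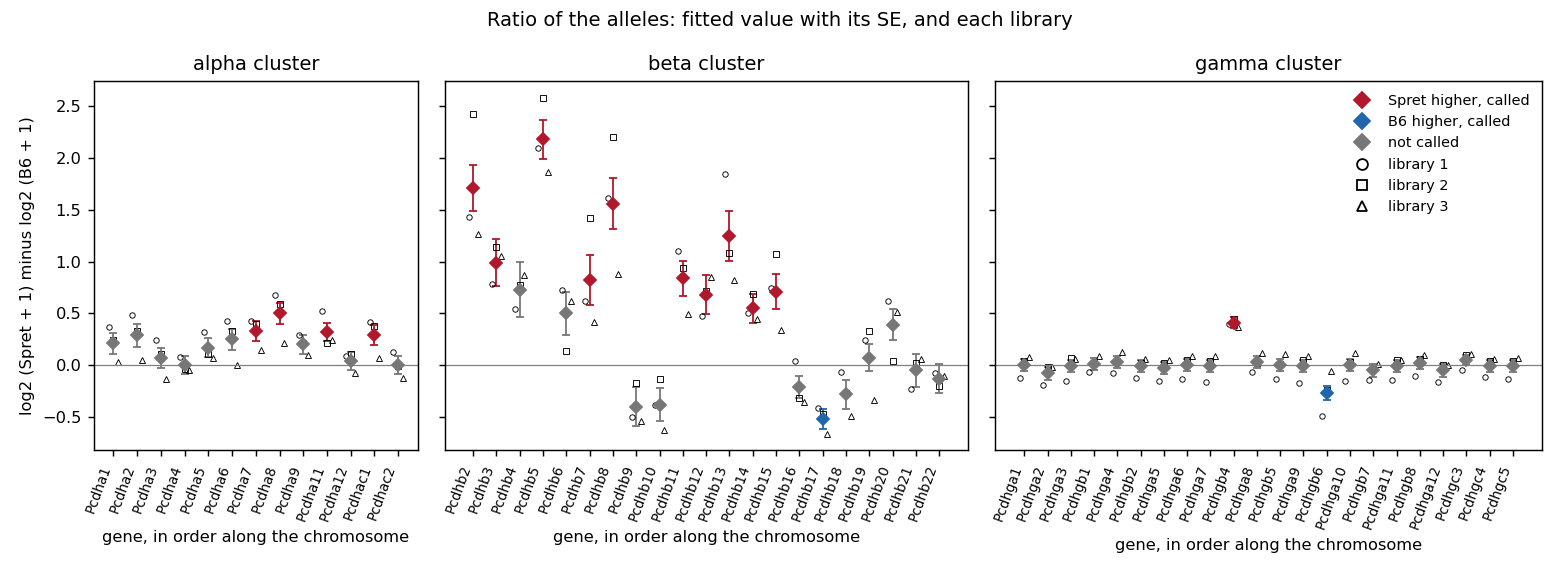
Log2 ratio of the Spret to the B6 allele (vertical axis) for the 56 tested genes in order along chromosome 18, with the fitted ratio and its SE as diamonds and the 3 libraries as open symbols. Red marks genes called higher from Spret, blue those called higher from B6; the beta array spreads from -0.52 to 2.18, and in the gamma array only Pcdhgb4 and Pcdhgb6 were called.

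The beta array lies at chr18:37264938-37524479 (mm10, GENCODE M21 positions), and its genes share no exon with one another except Pcdhb21 and Pcdhb22, which overlap by 455 bases. The genes resemble each other in sequence, and how reads matching several of them were placed is not given. Of the 21 tested genes, 10 were higher from Spret, 1 was higher from B6 and 10 were not called. In 13 genes the Spret value exceeded the B6 value in 3 of 3 libraries, in 5 the B6 value was the larger in 3 of 3, and 3 showed both directions. Over all tested genes 40.2% showed both directions, so 1 direction in 3 of 3 libraries is common. The share of all tested genes for each single direction, or with alleles that do not overlap, is not given here.

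Pcdhb5 leaned furthest. It read 128, 119 and 159 from Spret in libraries 1, 2 and 3, and 29, 19 and 43 from B6. Every Spret value lay above every B6 value, with a Spret share of 81.5%, 86.2% and 78.7%. The fitted difference was 4.54-fold, a log2 ratio of 2.18 ± 0.19 (SE, n = 3 libraries, limma adjusted p = 3.15e-07). The counting intervals of the 3 shares, 74.3% to 87.2%, 78.3% to 91.4% and 73.8% to 83.0% (95% Wilson, on values divided by the scale of the library), overlapped one another.

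Pcdhb2 and Pcdhb8, in the same 5′ part of the array, came next. Pcdhb2 read 99, 106 and 122 from Spret and 36, 19 and 50 from B6, a 3.27-fold difference (log2 ratio 1.71 ± 0.22, limma adjusted p = 2.9e-05). Pcdhb8 read 69, 68 and 91 from Spret and 22, 14 and 49 from B6, a 2.95-fold difference (1.56 ± 0.25, adjusted p = 0.000229 by limma). In both genes the alleles did not overlap, and in both the B6 value was lowest in library 2 and highest in library 3.

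Further calls toward Spret were Pcdhb13, Pcdhb3, Pcdhb11, Pcdhb7, Pcdhb15, Pcdhb12 and Pcdhb14. Pcdhb13 read 67, 56 and 68 from Spret and 18, 26 and 38 from B6 (log2 ratio 1.25 ± 0.24, limma adjusted p = 0.0011). Pcdhb3 read 35, 54 and 61 from Spret, against 20, 24 and 29 from B6 (0.99 ± 0.23, limma adjusted p = 0.00474). Pcdhb11 read 102, 93 and 120 from Spret and 47, 48 and 85 from B6 (0.84 ± 0.17, limma adjusted p = 0.00133). All 3 genes had every Spret value above every B6 value.

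Pcdhb7, at 45, 55 and 54 from Spret and 29, 20 and 40 from B6, had a ratio of 0.82 ± 0.24 (limma adjusted p = 0.0204). Pcdhb15 was at 84, 87 and 114 from Spret and at 50, 41 and 90 from B6 (0.71 ± 0.17, limma adjusted p = 0.00633), and here the B6 value of library 3 passed the lower Spret values. For Pcdhb12 the values were 60, 70 and 64 from Spret and 43, 42 and 35 from B6 (0.68 ± 0.19, limma adjusted p = 0.0152). The exons of Pcdhb12 are overlapped on the other strand by Gm37446, which read 52, 57 and 54 from Spret and 40, 46 and 49 from B6. The use of strand in counting is not given, and the part of Gm37446 in the Pcdhb12 ratio was not tested. Pcdhb14 closed the list at 109, 112 and 129 from Spret against 77, 69 and 94 from B6 (0.55 ± 0.14, limma adjusted p = 0.0078).

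Pcdhb17 was the 1 beta gene called toward B6. It read 132, 126 and 193 from Spret and 176, 175 and 306 from B6, a 1.43-fold higher B6 value (log2 ratio -0.52 ± 0.10, limma adjusted p = 0.0017), with the B6 value the larger in 3 of 3 libraries. The alleles overlapped in range, both being highest in library 3. The 10 genes not called had ratios of 0.73 (Pcdhb4), 0.50 (Pcdhb6), 0.39 (Pcdhb20), 0.07 (Pcdhb19), -0.05 (Pcdhb21), -0.13 (Pcdhb22), -0.21 (Pcdhb16), -0.28 (Pcdhb18), -0.38 (Pcdhb10) and -0.40 (Pcdhb9). Without library 1 the calls toward Spret numbered 6, and with no filter on low values 1, while no called beta ratio changed sign under any alternative.

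**Figure D2:**
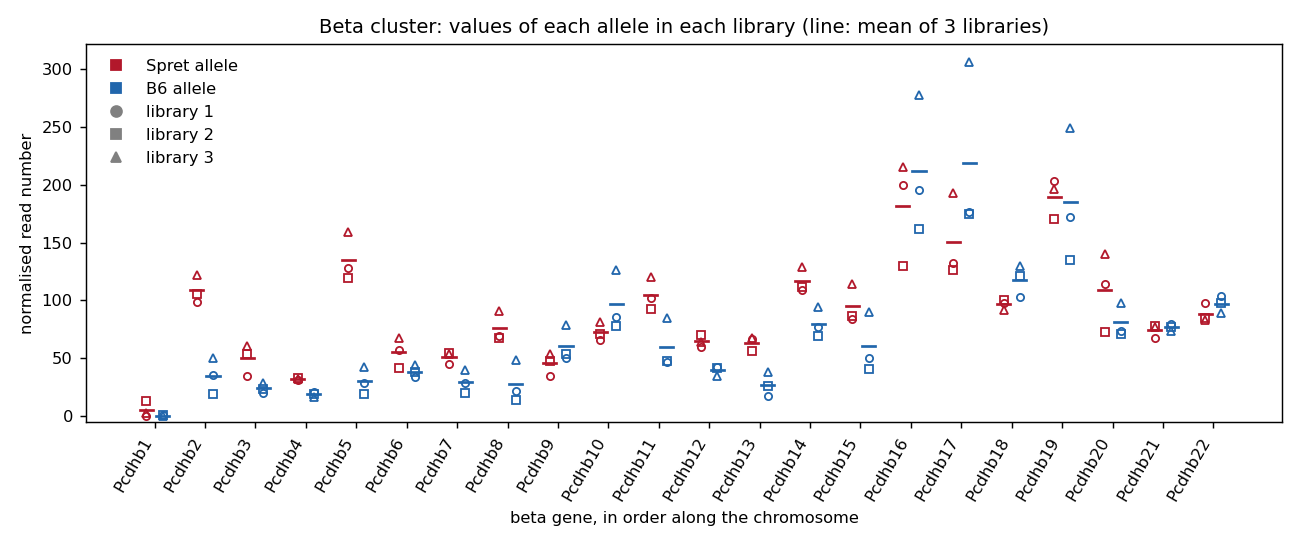
Normalised read number (vertical axis) of each beta gene in order along the chromosome, Spret in red left of B6 in blue, with 1 symbol per library and a line at the mean of 3 libraries. From Pcdhb2 to Pcdhb8 every gene has the higher mean from Spret, while from Pcdhb16 to Pcdhb22 the alleles lie closer together and only Pcdhb17 was called, toward B6.

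The leaning changed along the beta array. Over the 7 genes from Pcdhb2 to Pcdhb8 the values summed to 464, 477 and 587 from Spret and to 191, 153 and 272 from B6, and 7 of 7 genes were higher from Spret. From Pcdhb9 to Pcdhb15 the sums were 523, 537 and 630 from Spret and 371, 358 and 547 from B6, with 5 of 7 genes higher from Spret. From Pcdhb16 to Pcdhb22 they were 913, 762 and 996 from Spret and 904, 839 and 1223 from B6, with 2 of 7 higher from Spret. The log2 ratio of these sums was 1.34 ± 0.27, 0.43 ± 0.20 and -0.14 ± 0.16 (SD, n = 3 libraries), falling toward the 3′ end of the array.

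Across the 21 genes, which share libraries and are not replicates, the ratio followed the order along the array at a Spearman rho of -0.61, and at -0.53, -0.67 and -0.63 in libraries 1, 2 and 3. Mean values tended to rise along the array, and those of B6 followed the order more closely (rho = 0.77) than those of Spret (rho = 0.45). These values are not corrected for gene length or for sites that tell the alleles apart. The ratio is formed from them, so they are not an observation separate from its fall. Genes of low value sit mostly at the 5′ end, and the ratio also ran against the mean of both alleles (rho = -0.56) and, less closely, against the annotated exon length (rho = -0.34). The blocks were drawn after the values were seen, so these are descriptions.

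In the alpha and gamma arrays the values of different genes were nearly the same number. The lowest gamma member in every column was Pcdhga1, at 622, 684 and 802 from Spret and 674, 665 and 760 from B6. If each of the 22 gamma genes were at that lowest value, the total would reach between 90.4% and 93.4% of the array's summed value. In the alpha array the same share was between 81.1% and 88.7%. The annotation gives all 22 gamma genes 2116 exon bases in common and all 13 alpha genes 2860, which are the constant exons. On the same strand Gm37013, Gm37388, Gm38182 and Gm42416 also overlap exons of all 22 gamma genes. Gm42416 (log2 ratio -0.53 ± 0.09, limma adjusted p = 0.000603) and Gm38182 (-0.27 ± 0.08, limma adjusted p = 0.0153) were themselves called toward B6. Gm37013 and Gm37388 were not called. How reads of a shared exon were counted is not given, and the part of such reads in the common level was not tested. Genes that are mostly this common level also take its ratio, so the members of these arrays are not independent measurements. For Pcdhga1 that ratio was 0.00 ± 0.06.

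**Figure D3:**
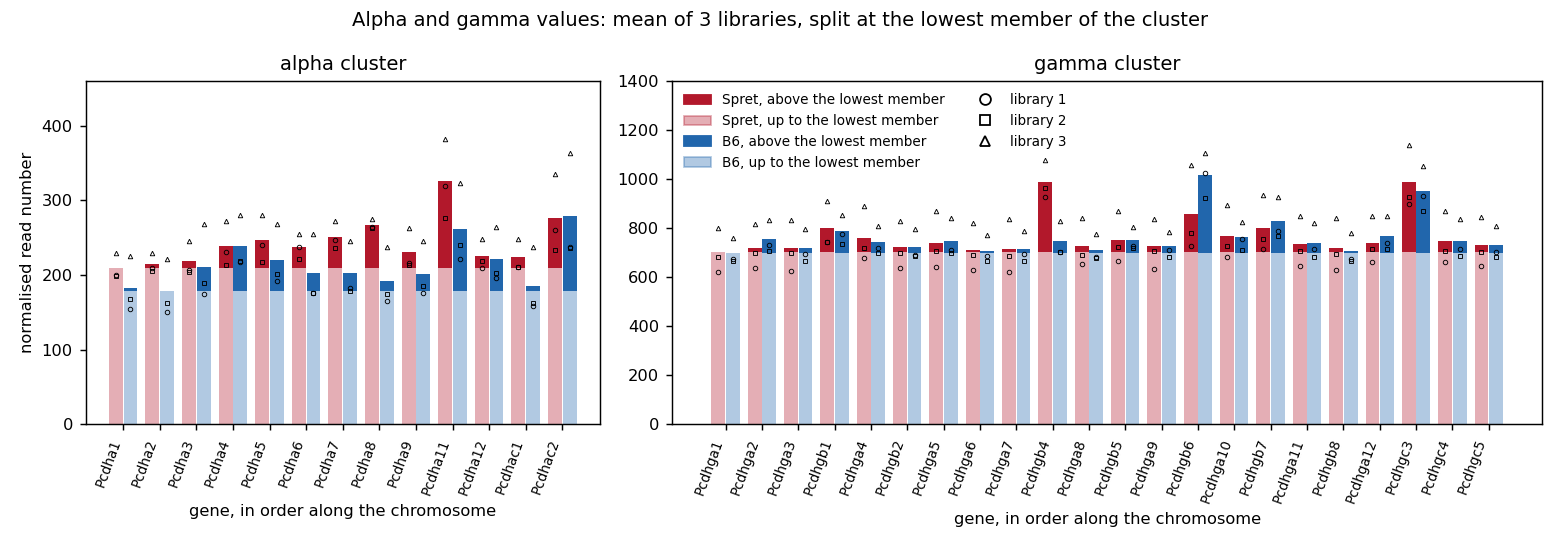
Normalised read number (vertical axis, from 0) of each alpha and gamma gene, mean of 3 libraries, Spret in red left of B6 in blue, with the libraries as symbols. The pale part of a bar reaches the lowest member of its array in the column and is nearly the whole bar in most genes; the dark part above it is large from Spret in Pcdhgb4 and from B6 in Pcdhgb6.

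Alpha genes leaned to Spret as deposited, and so did the level they have in common. The lowest alpha value of a column was 200, 199 and 230 from Spret (Pcdha1 in each library) and 150, 162 and 222 from B6 (Pcdha2, Pcdhac1 and Pcdha2), a log2 ratio of 0.41, 0.30 and 0.05. Above it the array summed to 452, 328 and 548 from Spret and to 454, 390 and 548 from B6, so the calls below do not separate a gene's own lean from that of the common level. The array spans chr18:36930184-37187661, and 4 of 13 genes were called toward Spret by limma and 0 toward B6, 0 also at an unadjusted p under 0.05. Pcdha8 read 265, 263 and 275 from Spret and 165, 174 and 237 from B6, a 1.41-fold difference (log2 ratio 0.50 ± 0.10, limma adjusted p = 0.0023). Every Spret value of Pcdha8 lay above every B6 value, with library 3 closest to balance. Pcdha7 read 247, 236 and 272 from Spret against 183, 179 and 245 from B6 (0.33 ± 0.10, limma adjusted p = 0.019).

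Pcdha11 read 319, 277 and 382 from Spret and 222, 240 and 323 from B6 (log2 ratio 0.32 ± 0.09, limma adjusted p = 0.0132). The annotation holds 2 genes under the name Pcdha11, and 3 further genes overlap their exons. Gm18150, on the same strand, read 13, 14 and 29 from Spret and 5, 8 and 11 from B6 and was itself called toward Spret (1.09 ± 0.35, limma adjusted p = 0.0293). On the other strand Gm10545 read 132, 83 and 135 from Spret and 74, 85 and 113 from B6, and Gm10544 read 45, 34 and 57 from Spret and 45, 54 and 58 from B6. Their part in the Pcdha11 ratio was not tested. The C-type gene Pcdhac1 read 211, 211 and 249 from Spret and 158, 162 and 237 from B6 (0.29 ± 0.10, limma adjusted p = 0.0469). In these 3 genes the Spret value was the larger in 3 of 3 libraries, but a B6 value of library 3 reached into the Spret range. The 9 genes not called had ratios of 0.29 (Pcdha2), 0.25 (Pcdha6), 0.21 (Pcdha1), 0.20 (Pcdha9), 0.17 (Pcdha5), 0.07 (Pcdha3), 0.04 (Pcdha12), and less than 0.01 in size for Pcdha4 and the C-type gene Pcdhac2. Without library 1 none of the 13 passed by limma, with Pcdha8 lowest at an adjusted p of 0.0704, and with ratios centred on the autosomal median of each library 9 did.

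Subtracting the lowest member of an array from each column leaves the part of each value above the common level, a step chosen after the values were seen. It takes the lowest member to have no reads of its own. After it limma called Pcdha7 and Pcdha8 toward Spret and Pcdha3, Pcdha4, Pcdha12 and Pcdhac2 toward B6. Pcdha8 stood 65, 64 and 45 above the lowest member from Spret and 15, 12 and 15 from B6, and Pcdha7 stood 47, 37 and 42 from Spret and 33, 17 and 23 from B6 (log2 ratio 0.81 ± 0.25, limma adjusted p = 0.0229). Pcdha12 stood 9, 20 and 19 above it from Spret and 46, 41 and 42 from B6, and Pcdha3 stood 7, 5 and 15 from Spret and 25, 27 and 46 from B6. Pcdha4 was at 31, 14 and 42 from Spret and 68, 57 and 59 from B6. Gm42416, which overlaps exons of Pcdha4 and of the gamma genes, read 220, 212 and 314 from Spret and 340, 347 and 378 from B6. Gm37388, which overlaps exons of Pcdha7, read 77, 100 and 120 from Spret and 113, 98 and 110 from B6. Gm10545, described above, also overlaps exons of Pcdha12. The part of these overlapping genes was not tested. In Pcdha8, Pcdha7, Pcdha12, Pcdha3 and Pcdha4 the alleles did not overlap, while in Pcdhac2 they did. The share of all tested genes without overlap is not given here.

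A difference between members of the same column does not depend on the common level if that level adds the same number to each member. Whether it does was not tested. The pairs given here were picked after the values were seen, and only the difference is compared between alleles, not the genes with each other. The value of Pcdha8 minus that of Pcdha12 was 56, 44 and 26 from Spret and -31, -29 and -27 from B6 in libraries 1, 2 and 3. Pcdha8 minus Pcdha4 was 34, 50 and 3 from Spret and -53, -45 and -44 from B6. Pcdha8 minus Pcdhac2 was 5, 29 and -60 from Spret and -73, -62 and -126 from B6. In these 3 pairs the Spret difference was the larger in 3 of 3 libraries, while its sign was opposite between alleles in 3 of 3 for the first and second pair and in 2 of 3 for the last. Each pair sets Pcdha8, called toward Spret, against a gene called toward B6 after the subtraction. A larger difference from Spret follows from that choice and is a description. The ratios of Pcdha3 and Pcdha12, near 0 as deposited, came to -1.83 and -1.45 after the subtraction. Pcdhac2 stood 60, 35 and 105 above the lowest member from Spret and 88, 74 and 141 from B6. Its B6 value was the larger in 3 of 3 libraries, although the ranges overlapped.

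In the gamma array, chr18:37661793-37841873, a single gene was called in each direction. Pcdhgb4 read 926, 965 and 1076 from Spret and 703, 704 and 831 from B6, a 1.33-fold difference (log2 ratio 0.41 ± 0.05, limma adjusted p = 4.03e-05). Pcdhgb6 read 729, 781 and 1059 from Spret and 1024, 925 and 1107 from B6, a 1.20-fold higher B6 value (-0.27 ± 0.07, limma adjusted p = 0.0095). The alleles did not overlap in Pcdhgb4 but did in Pcdhgb6, whose Spret value in library 3 lay above the B6 values of the other libraries. Without library 1 the ratio of Pcdhgb6 was -0.15 and its call ended (limma adjusted p = 0.176), and with centred ratios it was -0.14 (0.136). The 20 genes not called lay between -0.08 (Pcdhga2) and 0.05 (Pcdhgc3).

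Above the lowest gamma member the contrast of these genes was wider. Pcdhgb4 stood 304, 281 and 274 above it from Spret and 29, 39 and 71 from B6, so that Spret gave 91.3%, 87.8% and 79.4% of this part. The difference in this part was 6.49-fold (log2 ratio 2.70 ± 0.20, limma adjusted p = 7.17e-08). Pcdhgb6 stood 107, 97 and 257 above the lowest member from Spret and 350, 260 and 347 from B6 (-1.18 ± 0.17, limma adjusted p = 0.000111). Pcdhgb4 minus Pcdhgb6, which does not depend on a common level added equally to both, was 197, 184 and 17 from Spret and -321, -221 and -276 from B6. Every Spret difference lay above every B6 difference, and that of Spret in library 3, at 17, was close to 0. The pair joins the single gene called in each direction, so a larger difference from Spret follows from that choice and is a description.

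The C-type gene Pcdhgc3 was not called. It read 897, 929 and 1140 from Spret and 930, 869 and 1053 from B6 (log2 ratio 0.05 ± 0.05, limma adjusted p = 0.505), although centring on the autosomal median gave 0.18 (limma adjusted p = 0.0251). Above the lowest member it was at 275, 245 and 338 from Spret and 256, 204 and 293 from B6. Its exons are overlapped by BC037039 on the other strand, at 163, 156 and 174 from Spret and 186, 125 and 153 from B6. The other C-type gamma genes, Pcdhgc4 and Pcdhgc5, had ratios of -0.01 and -0.01. After the subtraction limma called Pcdhgb4 and Pcdhgb8 toward Spret and Pcdhgb6, Pcdhga2, Pcdhga12 and Pcdhgb7 toward B6. Pcdhgb8, annotated as a polymorphic pseudogene, stood 8, 9 and 38 above the lowest member from Spret and 1, 2 and 21 from B6 (log2 ratio 1.58 ± 0.42, limma adjusted p = 0.0103). This call rests on few reads, about 8, 9 and 88 over both alleles in libraries 1, 2 and 3. The Spret share of this part was 88.9%, 81.8% and 64.4%, nearest to balance in library 3, which had the most reads. Pcdhga2 stood 17, 13 and 17 above the lowest member from Spret and 56, 43 and 73 from B6, without overlap. Pcdhga12 stood 38, 29 and 48 above it from Spret and 66, 48 and 89 from B6, and Pcdhgb7 stood 92, 70 and 134 from Spret and 115, 103 and 168 from B6. In Pcdhga12 and Pcdhgb7 the B6 value was the larger in 3 of 3 libraries, although the ranges overlapped. Gm26672 overlaps the exons of both genes on the other strand, and those of Pcdhga10 and Pcdhga11, which were not called. It read 172, 142 and 241 from Spret and 247, 179 and 271 from B6. Gm26672 was itself called toward B6 (-0.34 ± 0.10, limma adjusted p = 0.0205), and its part in these ratios was not tested.

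**Figure D4:**
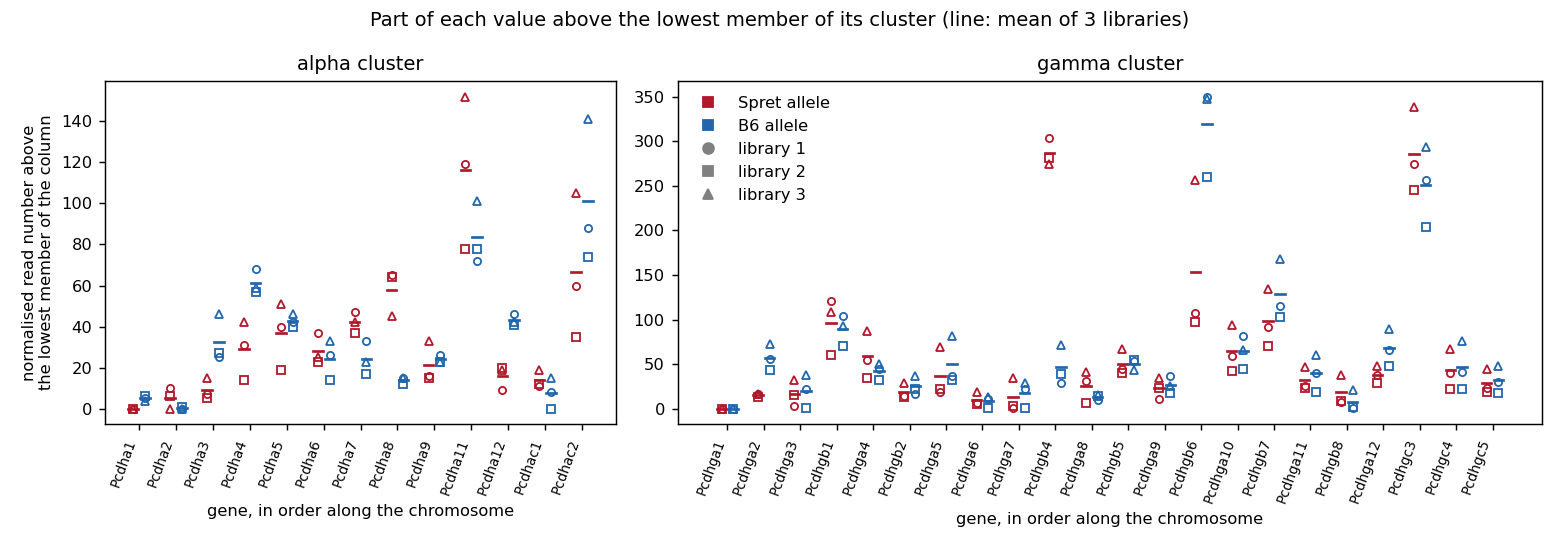
Normalised read number above the lowest member of the array (vertical axis) for each alpha and gamma gene, Spret in red left of B6 in blue, 1 symbol per library and a line at the mean of 3. Pcdhgb4 and Pcdha8 lie apart toward Spret, Pcdhgb6, Pcdha12 and Pcdhga2 toward B6, and Pcdhgc3 is at a similar height on both alleles.

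Allele use was then compared between the libraries. Each title, C1 to C3, has 1 library, so that differences between libraries have no replicate and were not tested. None of the 21 tested beta genes had a Spret share under 33.3% in one library and over 66.7% in another, against 0.601% of all tested genes. Deposited alpha and gamma shares cannot vary this far while the common level dominates them. Above the lowest member Pcdhga3, at 12.0%, 93.8% and 45.7% in libraries 1, 2 and 3, Pcdhga7, at 4.35%, 75.0% and 54.7%, and Pcdhga8, at 75.6%, 30.0% and 73.2%, passed both limits. These shares rest on few reads, with Pcdhga3 at 3, 15 and 32 above the lowest member from Spret and 22, 1 and 38 from B6. A residual SD at least 2 times that expected by limma's trend at the same level was found in 1 of 56 members, Pcdhgb6, against 3.53% of all tested genes. The ratio had both signs among the libraries in 26 of 56 members, against 40.2% of all tested genes. Of these 26, 19 were gamma genes, whose values are mostly the common level.

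In the gamma array 21 of 22 ratios were below 0 in library 1, while 18 of 22 in library 2 and 20 of 22 in library 3 were above 0. The median ratio was -0.13, 0.04 and 0.08. For Pcdhga1, the lowest member, the Spret share was 48.0%, 50.7% and 51.3%, with 95% Wilson intervals of 45.1% to 50.9%, 47.7% to 53.7% and 49.3% to 53.4%, which overlap. In the alpha array the median ratio was 0.37, 0.21 and 0.05, so here library 1 leaned most to Spret. The median over autosomal genes was -0.13, -0.13 and -0.12, without such a difference. Library 1 also had the highest choroid plexus marker sum, given above, and the part of cell composition in these shifts was not tested.

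Pcdhgb6, singled out by its residual SD on the deposited values, got from Spret 23.4%, 27.2% and 42.5% of the part above the lowest member in libraries 1, 2 and 3, with Wilson intervals of 19.6% to 27.9%, 22.3% to 32.6% and 39.3% to 45.8%. Its Spret share was highest in library 3. The intervals cover counting error only and take the subtracted level as exact, so they do not test a difference between libraries. For Pcdhgb4 the same intervals were 87.5% to 94.1%, 83.0% to 91.2% and 75.7% to 82.7%, with library 3 the lowest. Among the 21 tested beta genes the widest range was that of Pcdhb8, with Spret shares of 75.8%, 82.9% and 65.0%, and intervals of 65.5% to 84.0%, 71.8% to 90.1% and 58.2% to 71.1%. Summed over the array, Spret gave 56.4%, 57.0% and 52.0% of beta values.

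Genes around the arrays did not all lean to Spret. Of 27 neighbours on chromosome 18, 23 were tested, and limma called 4 toward Spret and 5 toward B6, with a median ratio of -0.12. The shares over all tested genes were 7.56% toward Spret and 22.8% toward B6. Taf7, a subunit of a general transcription factor that lies between the beta and gamma arrays, read 340, 285 and 439 from Spret and 254, 182 and 300 from B6 (log2 ratio 0.54 ± 0.08, limma adjusted p = 0.000204). Ik, a splicing factor, had a ratio of 0.24 ± 0.08 (limma adjusted p = 0.0341) and Diaph1, an actin-nucleating formin next to the gamma array, one of -0.37 ± 0.12 (limma adjusted p = 0.0329). Rnf14, at 0.01, was the most abundant neighbour not called. Taf7 was picked out for its position after its values were seen.

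Among 20 regulators of protocadherin promoters, all tested, limma called 2 toward Spret and 3 toward B6, and the median ratio was -0.03. Of all tested genes 7.56% were called toward Spret and 22.8% toward B6, and 2 of the 3 regulators called toward B6 are X-linked. Both X-linked cohesin genes, Smc1a and Stag2, were read almost only from B6, with Smc1a at 1, 0 and 0 from Spret and 762, 656 and 820 from B6. Trim28, a corepressor of silent chromatin, was higher from Spret (0.26 ± 0.06, limma adjusted p = 0.00462), and the cohesin regulator Pds5a was higher from B6 (-0.34 ± 0.08, limma adjusted p = 0.00599). Ctcf, the DNA-binding factor of the promoter loops, read 240, 216 and 238 from Spret and 274, 200 and 238 from B6 and was not called, nor was the cohesin subunit Smc3 (-0.08).

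Of 23 partners and effectors, all tested, limma called 2 toward Spret and 5 toward B6, with a median ratio of -0.08. Such counts are near the shares over all tested genes, 7.56% toward Spret and 22.8% toward B6. The partners include the WAVE complex, through which protocadherins reach actin. Its subunit Nckap1 read 645, 602 and 695 from Spret and 439, 384 and 415 from B6 (log2 ratio 0.65 ± 0.07, limma adjusted p = 2.86e-06). The GTPase Rac1, which activates that complex, read 87, 83 and 108 from Spret and 284, 241 and 322 from B6 (-1.60 ± 0.11, limma adjusted p = 1.67e-08). Both were singled out after their values were seen. The guidance receptor Robo1 was higher from Spret (0.19 ± 0.06, limma adjusted p = 0.0379), Marcks, an actin-binding membrane protein, higher from B6 (-0.26 ± 0.05, limma adjusted p = 0.000495), and the complex subunit Abi2 was not called (0.12).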

How the data were processed

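Allele-specific RNA reads were measured in 3 SpretB6 organoid libraries, depleted of ribosomal RNA and planned at 80 M reads each, per the labels' protocols. The deposited values are a score: allele-specific read numbers per gene that the authors normalised, per the name of the table, held as whole numbers. Reads were placed on mm10, per the submitters' processing notes. Aligner, allele assignment and counting are not given in the sources used here. Whole numbers that were missing or unevenly used in the table were best fitted by scale factors of 1.156, 1.276 and 0.672 in libraries 1, 2 and 3. A factor below 1 merges read numbers, so no test for read counts was used. Values divided by these factors gave Wilson intervals (SciPy 1.17.1), which cover counting error only.

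Ratios are log2(Spret + 1) minus log2(B6 + 1), which understates the ratio where values are low. The 15985 genes whose mean over 6 columns reached 10 were tested with limma 3.58.1 (R 4.3.3), an intensity trend and library as a block, two-sided, adjusted by Benjamini-Hochberg over all tested genes. Both alleles come from the same RNA, and their deviations correlated within libraries at 0.201, 0.427 and 0.540. Positions are those of GENCODE M21, on the assembly that mm10 names. The fit was tested on simulated data.

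The genes and lists were chosen with earlier results of these data known. All called members are named with values. Of those not called, gamma genes are given by range, and others with their ratio. From each list, the most abundant gene called in each direction and the most abundant not called are named, on autosomes for B6 calls among regulators, besides genes said to be chosen later. Alternatives were pseudocounts of 0.5 and 5, no filter or a mean of 50, centred ratios, no block, no trend, leaving out each library, and subtraction of the lowest member.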

Additional observations from a re-analysis of the deposited data

How the results depend on the processing

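Library as a block rests on the shared RNA of the alleles. Without that block (no pairing) 0 alpha and 4 beta genes were called toward Spret, 0 beta genes toward B6 and 0 gamma genes in either direction, and the table had 267 calls toward Spret and 1270 toward B6, with 2 of the regulators, 2 of the partners and 1 of the neighbours. Without limma's trend the alpha calls fell to 0, those toward B6 in the beta array to 0 and the gamma calls to 0 each, with 469 and 1760 over the table, and 2, 2 and 1 in the lists. With no filter on low values 0 alpha genes and 1 beta gene were called toward Spret, 0 beta and 0 gamma genes toward B6, 189 and 1047 over the table, and 2, 3 and 0 in the lists, and 1 member, Pcdhb1, leaned in opposite directions between libraries. Centring shifted ratios by 0.13, 0.13 and 0.12, and gave 9 alpha genes and 2 gamma genes toward Spret, 0 gamma genes toward B6, 2056 genes of the table toward Spret, and a gamma sum ratio of 0.12 in place of 0.00. The median of the member ratios put the beta array at 0.55 in place of 0.30 for the ratio of sums.

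Leaving out 1 library gave 0 to 6 alpha, 6 to 10 beta and 1 gamma calls toward Spret, 1 to 2 beta and 0 to 1 gamma calls toward B6, 581 to 991 and 2086 to 3010 over the table, and 2 to 6 regulators, 3 to 6 partners and 3 to 5 neighbours. Genes with a ratio of both signs then numbered 4 to 26, with 4 left without library 1. Subtracting the lowest member, chosen after seeing the data, gave 2 alpha genes toward Spret and 4 toward B6, 2 gamma genes toward Spret and 4 toward B6, and turned Pcdha3 to -1.83 and Pcdha12 to -1.45. The cause of these changes was not tested, beyond the fewer samples or other genes each setting uses. Pseudocounts of 0.5 and 5 ended no call among members. No member called on the deposited values changed sign in any setting run. Of the members not called on them, Pcdha3 and Pcdha12 crossed 0 and were called toward B6 after the subtraction. Ratios that stayed uncalled crossed 0 in up to 16 genes a setting. Pcdhb1, with a mean of 3.00, lay under the filter on low values, so its alleles could not be compared at this depth.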
